A study of Homo sapiens with 6 samples.

Results

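The insulin-like growth factor (IGF) system of HepG2 cells was examined here through 10 genes, which were taken by symbol from the 20030 genes of the count table and comprise the ligand gene IGF2, the receptor genes IGF1R, IGF2R and INSR, and the binding protein genes IGFBP1, IGFBP2, IGFBP3, IGFBP4, IGFBP6 and IGFBP7. HepG2 is an established human hepatoma line, and 3 libraries from cells with a control hairpin (sh_ctrl) were compared with 3 libraries from cells with a hairpin against KIF11 (sh_KIF11), a mitotic kinesin. Both hairpins came from lentivirus in stably transduced cells, so the control cells also carried a hairpin vector, and KIF11 was targeted by a single hairpin sequence. Poly(A) RNA was sequenced as stranded libraries with 18167773 to 19583282 counts each. The labels do not say whether the replicates were separate cultures, so the p-values below reach no further than these samples. In edgeR they rest on a spread moderated across all genes tested, whereas the exact permutation test uses the libraries of each gene alone. The KIF11 target stretch, 1 match among the GENCODE transcripts, is shown because it defines the perturbed group (5′ to 3′, no base in capitals).
KIF11 target: gcgcccattcaatagtagaat

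IGF2 is a growth factor of the fetal liver that is often switched on again in hepatoma cells. It signals through the receptor tyrosine kinase IGF1R and through the insulin receptor INSR, whereas IGF2R, the cation-independent mannose 6-phosphate receptor, takes IGF2 into lysosomes and also sorts lysosomal enzymes. Secreted IGF binding proteins hold IGFs away from or near these receptors and are themselves cut by extracellular proteases.

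KIF11 had 1976, 2088 and 2039 counts in sh_ctrl and 1448, 1478 and 1240 counts in sh_KIF11. The knockdown libraries were thus lower in every case, with a log2 fold change of -0.75. Changes reached much of the transcriptome, since 69.1% of the 12369 genes tested had an adjusted p under 0.05 (edgeR quasi-likelihood test, Benjamini-Hochberg adjustment), 34.4% higher and 34.7% lower, and 71.2% did not overlap between the groups. Pairs of sh_ctrl libraries with replicate 3 differed more (chi-square per degree of freedom 7.85 and 6.07) than the other pair (2.73) or the sh_KIF11 pairs (2.67 to 3.48), so no library was a copy of another. All 8 hepatocyte markers examined were detected, with a summed level of 31880 to 33430 CPM (counts scaled to TMM-normalised library size) in sh_ctrl and 14124 to 15268 CPM in sh_KIF11, and 7 of them fell. Markers of other cell types were low apart from LYZ, which made up nearly all of the leukocyte sum of 2400 to 2908 CPM in sh_ctrl and 462 to 599 CPM in sh_KIF11. The defining leukocyte marker PTPRC had at most 1 count, the fibroblast marker DCN was at 0 throughout, and the 6 fibroblast markers summed to 2.55 to 3.93 CPM in sh_ctrl and 1.40 to 2.04 CPM in sh_KIF11. The 4 endothelial markers summed to 3.16 to 3.56 CPM in sh_ctrl and 4.69 to 4.98 CPM in sh_KIF11. Of the tested markers of these other cell types, 3 leukocyte genes and 1 fibroblast gene fell and 1 endothelial gene rose. Among the leukocyte genes, CD14 had 25, 24 and 15 counts in sh_ctrl and 9, 8 and 4 counts in sh_KIF11. It reached the low-count filter only through the sh_ctrl libraries, where it is higher, so its call is no independent support. The part of these marker levels in the results below was not tested.

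All 10 IGF genes passed the low-count filter, and 9 of them (5 higher, 4 lower) passed the test, beside 69.1% of all genes tested. Scaling by library totals moved the median log2 fold change of all genes to 0.24, and 6 of the 10 genes were then called higher and 2 lower. In sh_KIF11 the ligand IGF2 and the liver binding protein IGFBP1 fell, while IGFBP4, IGFBP6, IGFBP7, IGFBP2 and the clearance receptor IGF2R rose. Changes of at least 2-fold were found in 6 of the 10 genes, beside 11.7% of all genes. The groups did not overlap in 8 of the 10, the exceptions being INSR and IGFBP3, beside 71.2% of all genes. The median log2 fold change over the 10 genes was 0.37, beside 0.00 over all genes. IGFBP2 passed the filter (0.53 CPM by library total, in at least 3 libraries) only through the sh_KIF11 libraries. It is among the 5 called higher, the 6 changed at least 2-fold and the 8 without overlap. Those numbers thus include a gene selected through the group where it is high.

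**Figure D1:**
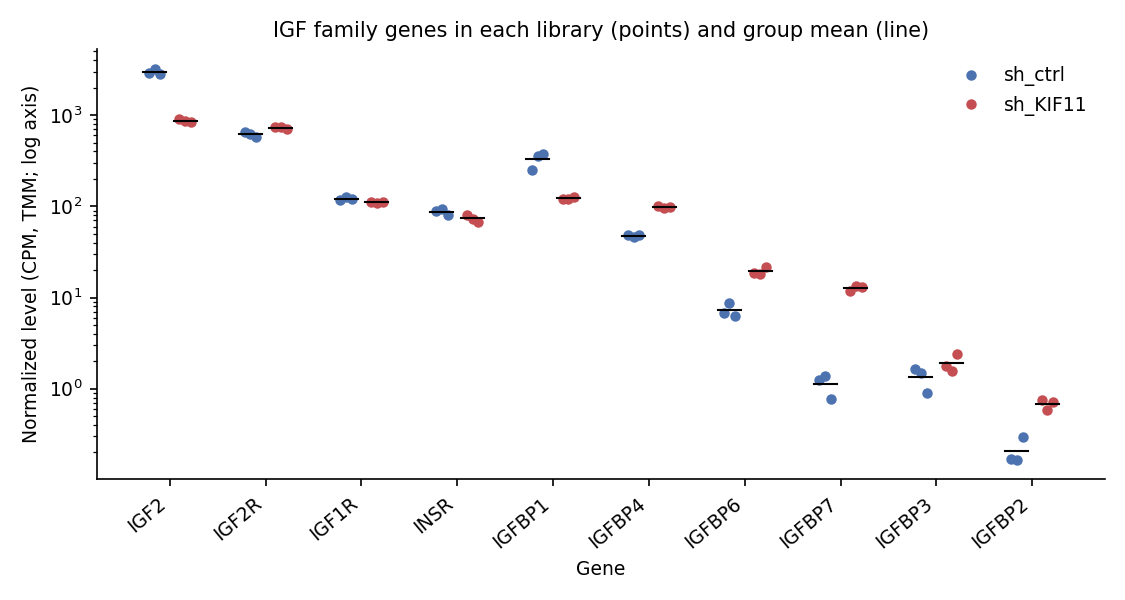
TMM-normalised CPM of each of the 10 IGF genes in the 3 sh_ctrl and 3 sh_KIF11 libraries. Points are libraries, and horizontal lines are group means. IGF2 and IGFBP1 lay lower in all sh_KIF11 libraries and IGFBP4, IGFBP6 and IGFBP7 higher, whereas the groups overlapped for INSR and IGFBP3.

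IGF2 (chromosome 11, 2129112 to 2149603, minus strand, GENCODE release 29 on GRCh38) had 51516, 58131 and 47902 counts in sh_ctrl and 18163, 17745 and 16580 counts in sh_KIF11. Its level was 2983 ± 208 CPM in sh_ctrl and 867.7 ± 33.5 CPM in sh_KIF11 (SD, n = 3 each). The lowest sh_ctrl library stood far above the highest sh_KIF11 library, and the mean was 3.44-fold higher in sh_ctrl. The log2 fold change was -1.78 (SE 0.0521, edgeR adjusted p = 3.96e-29), and the exact two-sided permutation test over the libraries gave p = 0.1, the smallest p that 3 against 3 allows and the value found for every member whose groups did not overlap. IGF2 alone took 0.275% of all counts in sh_ctrl and 0.0939% in sh_KIF11. In bulk RNA, fewer cells of a kind and less RNA in each cell cannot be told apart. Exons of IGF2 overlap those of the readthrough gene INS-IGF2 on the same strand over 1460 of 6979 bases (20.9%), and INS-IGF2 and INS were listed at 0 counts in all 6 libraries. They also overlap exons of AC132217.1 on the same strand and of IGF2-AS on the opposite strand, and neither of these was analysed here.

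Over the 6 libraries, the 3 genes whose log2 CPM followed IGF2 most closely, among 9392 genes averaging 10 CPM or more, were C8A, a complement component (Pearson r = 0.999963), SERPINA6, the corticosteroid carrier of plasma (0.999947), and APOC2, the cofactor of lipoprotein lipase (0.999924). With 3 libraries in each of the groups, these r values mostly restate the difference between the groups.

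IGF1R, the main signalling receptor (chromosome 15, 98648539 to 98964530, plus strand), was at 116, 127 and 120 CPM in sh_ctrl and at 112, 110 and 112 CPM in sh_KIF11. The groups did not overlap, but the gap between them was narrow. The log2 fold change of -0.12 (SE 0.0516, edgeR adjusted p = 0.0318) turned to 0.11 when libraries were scaled by their totals and to 0.05 in FPKM, so its direction depends on the scaling. Its call was also lost without sh_ctrl replicate 2 (adjusted p = 0.222) and without sh_KIF11 replicate 1, 2 or 3 (0.0560, 0.103 and 0.0665), within a range of 0.0141 to 0.446 over all alternatives.

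INSR, the insulin receptor (chromosome 19, 7112255 to 7294034, minus strand), was at 89.4, 92.9 and 79.8 CPM in sh_ctrl and at 81.0, 72.3 and 67.7 CPM in sh_KIF11. The highest sh_KIF11 library exceeded the lowest sh_ctrl library, so the groups overlapped (exact permutation p = 0.2). The log2 fold change was -0.25 (SE 0.0624, edgeR adjusted p = 0.000634) and moved to -0.02 with library totals, where the call was lost (adjusted p = 0.831, within 8.28e-06 to 0.831 over all alternatives).

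IGF2R (chromosome 6, 159969099 to 160113507, plus strand) rose slightly, from 615 ± 35.5 CPM to 727 ± 21.4 CPM (SD, n = 3 each). It had 11606, 11095 and 9784 counts in sh_ctrl and 14722, 15400 and 13862 counts in sh_KIF11, and all 3 knockdown libraries were higher. The log2 fold change was 0.24 (SE 0.0491, edgeR adjusted p = 3.79e-05), and it was positive in every alternative, from 0.20 to 0.47. The receptors spanned a narrower range of change than the ligand and the binding proteins, as the plot of changes shows.

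**Figure D2:**
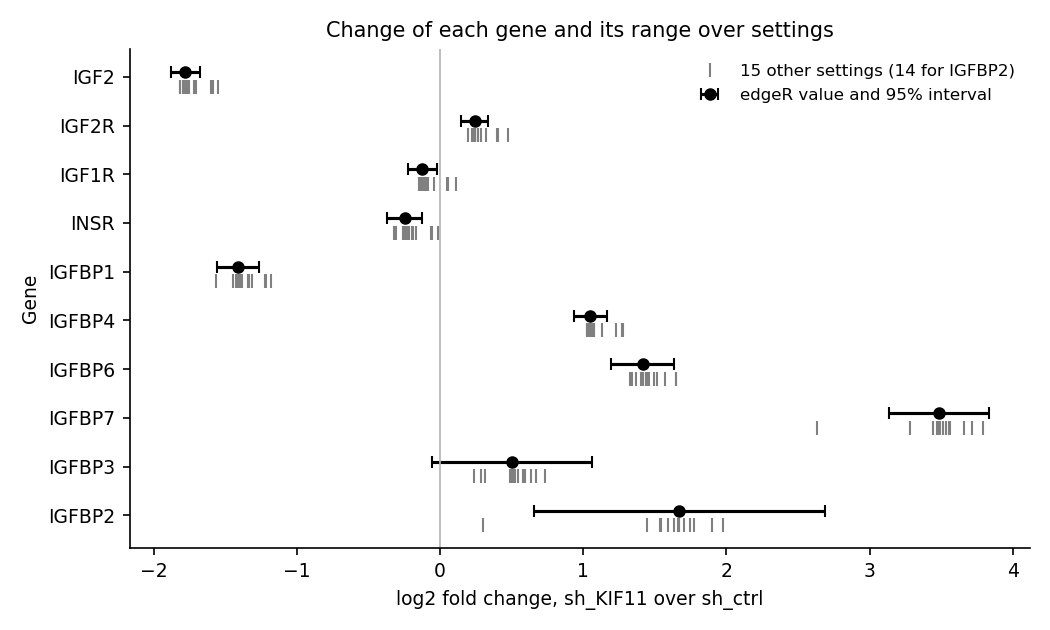
Log2 fold change of each IGF gene, sh_KIF11 over sh_ctrl. Black points are edgeR values with 95% intervals, and grey ticks are the values under 15 other settings (14 for IGFBP2). IGF1R lies on both sides of 0 depending on the setting, whereas IGF2 and IGFBP1 stay below 0 and IGF2R, IGFBP2, IGFBP3, IGFBP4, IGFBP6 and IGFBP7 above 0 in all those run.

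Promoter windows of 250 bases before the start were present in the RefSeq table (GRCh38.p14) for 7 of the 10 genes, in 9 windows, and IGF2, IGFBP1 and IGFBP7 had none there. They were searched on both strands for ACGTG, the core of the hypoxia response element, and AAACA, the core of FOXO sites in insulin response elements. ACGTG or its complement CACGT was present in 18.5% of all 35116 windows and AAACA or TGTTT in 40.4%. The IGF2R window held 6 such ACGTG positions, which are 3 copies of CACGTG read on both strands, since CACGTG is its own complement and also the E-box letters. Among all 35116 windows, 37 (0.105%) held 6 or more. That cutoff equals the value of the IGF2R window, the highest of the 9, so the share is a description only. IGF1R had 1 ACGTG position, IGFBP6 had 1 AAACA position, and 1 of the 3 IGFBP2 windows had 2 AAACA positions. The IGFBP4 window held neither motif, and it is shown beside that of IGF2R because both genes rose and their windows differ in these letters. Capitals mark CACGTG, and the windows are chr6:159968832-159969081 and chr17:40443200-40443449, both on the plus strand. A match describes the letters only and is no measured binding site.
IGF2R promoter: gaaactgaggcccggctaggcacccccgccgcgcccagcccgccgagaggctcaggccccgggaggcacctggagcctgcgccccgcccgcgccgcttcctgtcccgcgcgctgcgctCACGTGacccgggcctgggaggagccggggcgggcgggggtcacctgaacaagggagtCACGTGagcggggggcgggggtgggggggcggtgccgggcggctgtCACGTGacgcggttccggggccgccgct
IGFBP4 promoter: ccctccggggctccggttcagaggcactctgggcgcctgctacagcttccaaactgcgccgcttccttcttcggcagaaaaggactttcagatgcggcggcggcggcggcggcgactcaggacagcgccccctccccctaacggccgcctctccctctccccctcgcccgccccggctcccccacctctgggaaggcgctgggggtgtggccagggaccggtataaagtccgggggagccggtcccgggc

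IGFBP1 is the binding protein that liver cells secrete in fasting and that insulin represses (chromosome 7, 45888357 to 45893668, plus strand). It had 4515, 6427 and 6258 counts in sh_ctrl and 2431, 2468 and 2513 counts in sh_KIF11. The sh_KIF11 libraries were close to each other and all lower, while sh_ctrl replicate 1 lay below the other two sh_ctrl libraries. The mean fell from 327 ± 64.1 CPM to 123 ± 4.28 CPM (SD, n = 3 each), with a log2 fold change of -1.41 (SE 0.0742, edgeR adjusted p = 2.26e-20). Without sh_ctrl replicate 1 the log2 fold change was -1.56. The SE was larger in the other fits, at 0.163 in DESeq2 and 0.123 and 0.141 in limma on log2 FPKM (pseudocounts 1 and 0.1).

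IGFBP3, the chief carrier of IGFs in blood, lies on the opposite strand next to IGFBP1 (chromosome 7, 45912245 to 45921874), with 18576 bases between the genes. It had 29, 27 and 15 counts in sh_ctrl and 36, 32 and 47 counts in sh_KIF11. In CPM the groups overlapped (exact permutation p = 0.2), at 1.34 ± 0.394 in sh_ctrl and 1.91 ± 0.430 in sh_KIF11 (SD, n = 3 each). The log2 fold change of 0.50 (SE 0.284, edgeR adjusted p = 0.114) did not pass the test, with a 95% interval from -0.06 to 1.06. It passed when libraries were scaled by totals (0.73, adjusted p = 0.0200) and in FPKM (adjusted p = 0.0280 and 0.0341), within 0.0200 to 0.420 over all alternatives. The neighbours IGFBP1 and IGFBP3 thus had log2 fold changes of opposite sign, of which that of IGFBP1 alone passed the test.

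IGFBP4, an inhibitory binding protein that the protease PAPPA cleaves (chromosome 17, 40443461 to 40457731, plus strand), had 870, 830 and 814 counts in sh_ctrl and 2037, 2005 and 1924 counts in sh_KIF11. Libraries agreed closely within each group, and the groups lay far apart. The level rose from 47.7 ± 1.48 CPM to 98.6 ± 2.52 CPM (SD, n = 3 each), 2.07-fold, with a log2 fold change of 1.05 (SE 0.0575, edgeR adjusted p = 1.00e-19).

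IGFBP6, which prefers IGF2 over IGF1 (chromosome 12, 53097436 to 53102345, plus strand), had 121, 157 and 107 counts in sh_ctrl and 374, 379 and 423 counts in sh_KIF11. Every knockdown library exceeded every control library. The level rose from 7.27 ± 1.25 CPM to 19.5 ± 1.72 CPM (SD, n = 3 each), 2.68-fold, with a log2 fold change of 1.42 (SE 0.112, edgeR adjusted p = 1.33e-14).

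IGFBP7, a secreted protein with low affinity for IGFs (chromosome 4, 57030773 to 57110385, minus strand), had 22, 25 and 13 counts in sh_ctrl and 239, 280 and 255 counts in sh_KIF11. It changed by the largest factor of the 10 genes in edgeR, from 1.13 ± 0.320 CPM to 12.8 ± 0.817 CPM (SD, n = 3 each), 11.3-fold. In edgeR the log2 fold change was 3.49 (SE 0.177, edgeR adjusted p = 7.98e-21). Exons of IGFBP7 overlap those of POLR2B over 270 of 1930 bases and those of IGFBP7-AS1 over 94 bases on the opposite strand. The strand setting of the counting is not given in the sources used here, so reads of these genes could not be separated in the shared bases. POLR2B itself had a log2 fold change of 0.14 (edgeR adjusted p = 0.0304).

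IGFBP2, an abundant binding protein of fetal serum (chromosome 2, 216632828 to 216664436, plus strand), was nearly absent, with 3, 3 and 5 counts in sh_ctrl and 15, 12 and 14 counts in sh_KIF11. The knockdown libraries were all higher, but the counts are few. Its log2 fold change was 1.67 (SE 0.519, edgeR adjusted p = 0.00444). The gene entered this test only through the sh_KIF11 libraries, where it is higher, so the p-value is no independent support. Pooled over libraries, 11 and 41 counts gave a ratio of 3.25, with an exact 95% interval from 1.64 to 7.01 that covers counting error only.

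Levels of different genes were compared in the deposited FPKM, which is scaled to transcript length. In sh_ctrl, IGFBP1 (mean 236 FPKM, 185 to 267) and IGF2 (228 FPKM, 220 to 239) led and overlapped. They were followed by IGF2R (33.8 FPKM) and IGFBP4 (18.7 FPKM), then by IGF1R (7.09 FPKM), INSR (7.05 FPKM) and IGFBP6 (5.98 FPKM), of which neighbours overlapped. IGFBP7 (0.590 FPKM) and IGFBP3 (0.383 FPKM) overlapped near the bottom, above IGFBP2 (0.0507 FPKM). In sh_KIF11 the order was IGFBP1 (99.9 FPKM), IGF2 (75.1 FPKM), IGFBP4 (45.1 FPKM) and IGF2R (44.6 FPKM), of which the last pair overlapped, then IGFBP6 (18.9 FPKM) and IGFBP7 (8.70 FPKM). IGF1R (7.36 FPKM) and INSR (6.75 FPKM) overlapped next, above IGFBP3 (0.629 FPKM) and IGFBP2 (0.295 FPKM). In these means IGFBP6 stood below IGF1R in sh_ctrl, where the pair overlapped, and above it in sh_KIF11.

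**Figure D3:**
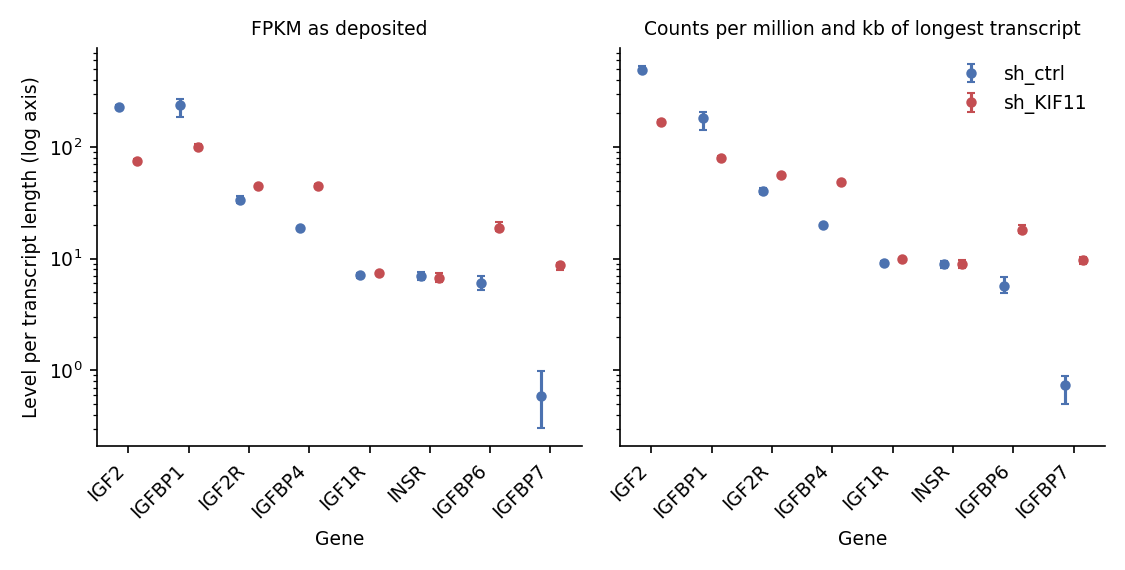
Levels of the IGF genes other than IGFBP2 and IGFBP3 on a log axis in sh_ctrl and sh_KIF11. The panels give deposited FPKM and CPM by library total per kilobase of the longest transcript. Points are group means, and bars run from the lowest to the highest of the 3 libraries. IGF2 and IGFBP1 led in both groups, and IGFBP7 moved from 0.590 to 8.70 FPKM.

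The order of some neighbours depends on the per-length scale used, and IGFBP1 and IGF2 are the highest of these. Counts divided by FPKM imply a length of 12367 bases for IGF2, 2.21 times its longest GENCODE transcript (5585 bases), and 1298 bases for IGFBP1, 0.785 times its longest (1653 bases), where the median gene gave 1.36. IGF2 over IGFBP1 was 0.964 in sh_ctrl and 0.752 in sh_KIF11 by FPKM. With CPM by library total per kilobase of the longest transcript, it was 2.70 and 2.09. On either scale the ratio was lower in sh_KIF11, but both scales come from the same libraries. The second scale is thus no separate check of that direction. Counts and FPKM did not keep a fixed ratio in every gene. IGFBP7 had 22 counts at 0.979 FPKM in sh_ctrl replicate 1 and 25 counts at 0.487 FPKM in sh_ctrl replicate 2. The scales can thus differ by more than a length. In sh_KIF11, the longest-transcript scale also put IGF2R (56.0, 54.3 to 57.4) above IGFBP4 (48.5, 47.7 to 49.8) without overlap, and IGFBP7 (9.70, 9.01 to 10.3) in overlap with IGF1R (9.83, 9.72 to 9.90).

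The 6 binding protein genes summed to 262 ± 43.6 FPKM in sh_ctrl and 174 ± 6.97 FPKM in sh_KIF11 (SD, n = 3 each). Without IGFBP1 the sum was 25.7 ± 0.627 FPKM in sh_ctrl and 73.6 ± 2.26 FPKM in sh_KIF11. Both sums use FPKM without TMM factors. In FPKM the median log2 fold change of all genes was 0.12 (pseudocount 1) or 0.17 (pseudocount 0.1). The share of IGFBP1 in the sum was 90.0% ± 2.07 in sh_ctrl and 57.6% ± 0.413 in sh_KIF11. Among the others, IGFBP4 went from 7.29% ± 1.50 to 26.0% ± 1.17 and IGFBP6 from 2.32% ± 0.461 to 10.9% ± 0.728. IGFBP7 held 0.246% ± 0.190 in sh_ctrl and 5.02% ± 0.422 in sh_KIF11, whereas IGFBP3 (0.154% and 0.361%) and IGFBP2 (0.0176% and 0.170%) stayed minor. With lengths from the longest transcript, IGFBP1 made up 86.8% and 51.0%.

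**Figure D4:**
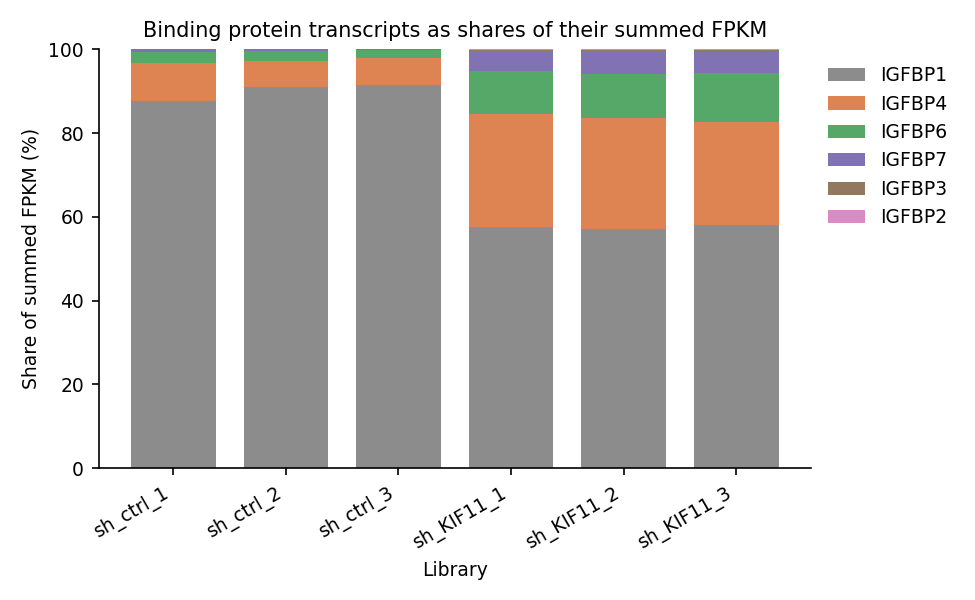
Share of each of the 6 binding protein genes in their summed FPKM (%), stacked for each library. IGFBP1 filled 90.0% of the sum on average in sh_ctrl and 57.6% in sh_KIF11, where IGFBP4, IGFBP6 and IGFBP7 took larger shares in all 3 libraries.

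The remaining genes of the pathway were described through 7 lists of 81 genes, of which 66 were tested and 45 (68.2%) passed, 24 higher and 21 lower, beside 69.1% of all genes. Log2 fold changes smaller in size than 0.24 lie within the shift seen with library totals. Of 7 other ligands, receptors and binders, only IGFALS, the acid-labile subunit of the serum complex, was tested (log2 fold change -0.03, not past the threshold). IGFBP5 had 0, 0 and 0 counts in sh_ctrl and 9, 5 and 4 counts in sh_KIF11. Its sh_KIF11 mean was 1.74 times a floor of 3 counts per library. That ratio makes no allowance for counting error and is no lower bound. IGF1 had 0 counts in all sh_ctrl libraries and 1, 3 and 7 counts in sh_KIF11. INS, INS-IGF2 and INSRR, the insulin-receptor-related receptor, had none in any library, and IGFBPL1 had at most 2 counts.

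Among 8 proteases of the binding proteins and their inhibitors, 3 were tested and all 3 passed, beside 69.1% of all genes tested. However, HTRA1 reached the filter only through the sh_KIF11 libraries, and 2 genes passed with at least 10 counts in every library. STC2, a stanniocalcin that inhibits PAPPA, fell from 96.1 ± 1.34 CPM to 47.5 ± 3.16 CPM (log2 fold change -1.02). ADAM9, a membrane metalloprotease, rose from 194 ± 15.8 CPM to 252 ± 7.13 CPM (0.38). HTRA1, a secreted serine protease named here after its values were seen, had 0, 1 and 0 counts in sh_ctrl and 20, 23 and 18 counts in sh_KIF11. Its sh_KIF11 mean was 5.90 times the same floor, again without allowance for counting error. PAPPA had 0 counts in sh_ctrl and 4, 1 and 2 counts in sh_KIF11, too few to test.

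Of 8 regulators of the IGF2 locus and mRNA, 7 were tested, 1 rose and 2 fell, with a median log2 fold change of 0.04. The share called was 42.9%, beside 69.1% of all genes tested, whose median was 0.00. LIN28B, a fetal RNA-binding protein, fell by 0.52 on the log2 scale (77.7 ± 3.83 CPM and 54.2 ± 2.26 CPM). The IGF2 mRNA-binding proteins IGF2BP3 (0.15) and IGF2BP2 (-0.12) also passed, and 5 genes of the list passed without sh_ctrl replicate 3. H19 was not analysed here.

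Of 14 receptor adaptors and receptor inhibitors, 13 were tested, 7 rose and 2 fell, with a median log2 fold change of 0.20. With 69.2% called, the list stood at the share of all genes tested (69.1%, median 0.00). SOCS2, a suppressor of cytokine and growth hormone signalling, rose from 1.10 ± 0.175 CPM to 9.78 ± 0.621 CPM (3.15). GRB10, an adaptor that inhibits both IGF1R and INSR, rose from 10.1 ± 0.538 CPM to 29.3 ± 3.82 CPM (1.54). NEDD4, a ubiquitin ligase, rose by 0.91 and SOCS1, a suppressor of cytokine signalling, fell by 1.33 on the log2 scale. Of the 22 tested of 23 genes in the PI3K-AKT-mTOR arm, 8 rose and 7 fell, with a median of 0.06. Here 68.2% were called, also near the share of all genes. RICTOR, the defining subunit of mTOR complex 2, was at 0.67 and the kinase AKT2 at -0.51. The PI3K regulatory subunit PIK3R3 was at 0.42 and the translation repressor EIF4EBP1 at -0.41, and all of these were past the threshold. PIK3R3 passed only narrowly (edgeR adjusted p = 0.0496), and its groups overlapped (exact permutation p = 0.2).

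FOXO1 is the factor that insulin and IGF signalling hold out of the nucleus. Of 9 liver genes known to respond to it, 8 were tested, and 4 rose and 4 fell. Their median log2 fold change was -0.09, beside 0.00 over all genes tested, of which 69.1% were called. PDK4, which restrains pyruvate oxidation, reached the filter only through the sh_KIF11 libraries, and KLF15 through the sh_ctrl libraries and 1 sh_KIF11 library. With at least 10 counts in every library, 6 genes of the list passed. The stress protein gene SESN3 rose from 1.19 ± 0.147 CPM to 5.96 ± 0.320 CPM (2.31). KLF15, a transcription factor of amino acid and glucose metabolism, fell from 2.17 ± 0.413 CPM to 0.497 ± 0.174 CPM (-2.12). G6PC, the glucose-releasing phosphatase (-1.36), and the coactivator PPARGC1A (-1.21) also fell. Of 12 genes of the mannose 6-phosphate receptor route that IGF2R serves, 2 rose and 5 fell, with a median of -0.05. That is 58.3% called, beside 69.1% of all genes. The sorting receptor SORT1 (-0.66), NAGPA, which uncovers the mannose 6-phosphate tag (-0.52), and the retromer subunit VPS29 (-0.24) fell, whereas the retromer subunit VPS26A (0.38) rose.

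**Figure D5:**
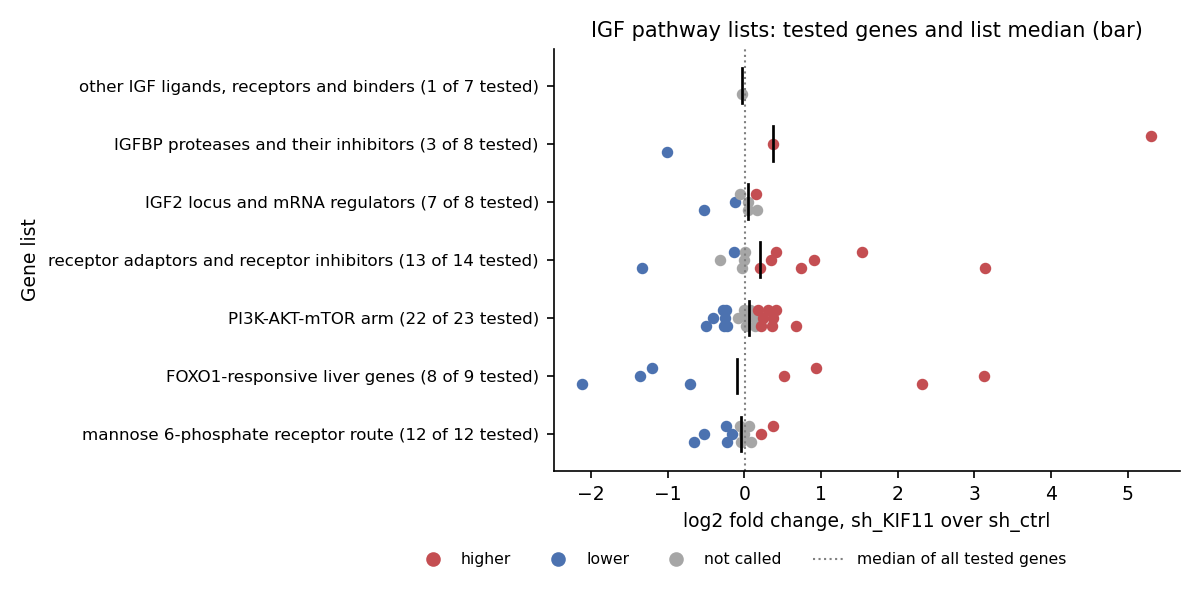
Log2 fold change, sh_KIF11 over sh_ctrl, of the tested genes in each of the 7 IGF pathway lists. Points are genes coloured by call, black bars are list medians, and the dotted line is the median of all genes tested (0.00). The point farthest to the right is HTRA1, whose fitted value depends on the prior count and is no bound.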

How the data were processed

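mRNA was sequenced from 3 sh_ctrl and 3 sh_KIF11 HepG2 libraries. The authors deposited a table of gene counts that had not been normalized and a table of FPKM values, which they had scaled to length and sequencing depth. The submitters' processing notes name bcl2fastq 1.8.4, Trimmomatic, HISAT2 2.1.0, Cufflinks 2.2.1, HTSeq 0.9.1 and DESeq, with build GRCh38. The annotation and the strand setting are not given in the sources used here. Columns named shRNA were taken as sh_KIF11, the only other group in the labels.

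Counts (18167773 to 19583282 per library) were fitted with edgeR 4.0.16 under R 4.3.3 (TMM factors, filterByExpr, quasi-likelihood test of group, Benjamini-Hochberg adjustment over 12369 genes, threshold 0.05). A change is past the threshold at an adjusted p under 0.05. The biological coefficient of variation was 4.87%. Exact permutation tests were two-sided. A count of 0 was allowed up to 3 counts per library. The IGF genes and the lists were chosen with earlier results of these data known. Named were all IGF genes and, in each list, up to 4 genes with the largest absolute log2 fold change among those past the threshold with a mean of at least 1 CPM, all other ligands, receptors and binders, and the 3 genes most correlated with IGF2. Other genes were named after their values were seen. For this comparison, 2-fold changes were planted in simulated counts, of which 12338 genes were tested. In these, edgeR recovered 97.5% of 199 changed genes and called 7 others, DESeq2 1.42.0 95% and 4, and limma 3.58.1 97% and 9. The simulated limma fit used log2 CPM by library total with a pseudocount of 1, so it did not try limma on FPKM. Only 200 genes were changed, as many up as down, with the same dispersion for every gene and no change planted in genes with few counts, such as IGFBP2. In the data 69.1% of genes were called, so these rates do not carry over to them. Alternatives were RLE, upper-quartile and library-total scaling, no filter, at least 10 counts in every library, a replicate block, limma on log2 FPKM with a pseudocount of 1 or 0.1, DESeq2, and leaving out each library. Counts per kilobase of the longest GENCODE transcript were added after seeing the data.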

Additional observations from a re-analysis of the deposited data

How the results depend on the processing

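Over 15 alternatives, IGF2, IGF2R, IGFBP1, IGFBP4, IGFBP6, IGFBP7 and KIF11 kept their direction and call, as did IGFBP2 in 14 (it has no value with at least 10 counts in every library). Of 164 values for the IGF genes and KIF11, 149 kept both and 15 did not. Scaling by library totals moved the median log2 fold change of all genes from 0.00 to 0.24 and the calls to 6621 higher and 2373 lower, with 2 IGF genes lower and 7 IGF2 regulators called. Upper-quartile factors gave 5014 higher and 3563 lower (58.5% higher, against 49.8%). In FPKM, 2562 genes (pseudocount 1) and 2423 genes (0.1) were lower, with 2 IGF genes lower and 5 IGF2 regulators called in each. IGF1R was -0.045 with upper-quartile factors, 0.11 with library totals, -0.10 with at least 10 counts, 0.048 and 0.054 with the pseudocounts, and between -0.147 and -0.086 without each library. INSR was -0.015 with library totals and -0.056 and -0.064 with the pseudocounts. IGFBP3 passed with library totals (0.73) and in FPKM (0.23 and 0.59). Leaving out single libraries gave 2 to 5 called IGF2 regulators, with 5 without sh_ctrl replicate 3. Without a filter, 2 other ligands, receptors and binders were called. With lengths of the longest transcript, the IGF2 to IGFBP1 ratio was 2.70 and 2.09, and IGFBP1 held 86.8% and 51.0% of binding protein transcripts. The cause of these shifts was not tested.

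Replicate numbers did not pair the libraries (correlations of deviations 0.0951, -0.0796 and 0.0131), and with the replicate block 8607 genes were called, with 5 IGF genes higher and 4 lower. Depth limits IGFBP2 and IGFBP3, which rest on 11 and 71 counts in sh_ctrl. It also limits the size of the IGFBP7 change, with 22, 25 and 13 counts in sh_ctrl. The log2 fold change of IGFBP7 ran from 2.63 to 3.79 over the alternatives.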
